A study of Mus musculus with 14 samples.

Results

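The experiment described here compared RNA from layer II/III of the mouse cerebral cortex with and without NexCre, which expresses Cre from the Neurod6 locus in cortical excitatory neurons around the time they leave the cell cycle. Its members are all genes of the postmitotic count table that passed edgeR's filter on low counts, 17775 of 55353 gene symbols, measured in 6 of the 14 libraries of the series. The 3 control libraries came from Lhx2lox/lox cortex and the 3 libraries labelled mutant from NexCre/+; Lhx2lox/lox cortex, all at postnatal day 5 (P5). Every library, controls included, was from tissue electroporated with EGFP and carried floxed Lhx2, so the groups differ by their labels in NexCre alone. The other 8 libraries belong to an experiment in which control Lhx2lox/lox cortex received EGFP and labelled mutant cortex received Cre-EGFP by electroporation (n = 4 each, P5), and which addresses the loss of Lhx2 in progenitors. No group carried NexCre without floxed Lhx2, so an effect of the Cre allele itself and one of the loss of Lhx2 cannot be told apart. The labels describe tissue of this layer cut from live coronal sections and dissociated. They name no sort for EGFP, no number of animals and no pooling, so p-values measure how these libraries vary, and some of that variation may be technical.

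Lhx2 encodes a LIM-homeodomain transcription factor. Proteins of this family bind DNA through the homeodomain and recruit partners through their LIM domains, above all the cofactors Ldb1 and Ldb2, while LIM-only proteins such as Lmo4 compete for the same cofactors without binding DNA. In the cortex Lhx2 is known for keeping progenitors cortical, and it remains expressed in upper-layer neurons, whose dendrites grow during the first postnatal weeks.

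Total counts ranged from 21605777 to 25891416 per library. The common biological coefficient of variation was 0.112, and replicates of a group differed by more than sampling noise (6.31 to 11.9 chi-square units for each degree of freedom), and none was treated as a duplicate. On the first principal component of all tested genes, which held 33.7% of the variance, controls 1 to 3 lay at -24.0, -17.9 and -3.82 and libraries 1 and 2 labelled mutant at 22.4 and 34.9, whereas library 3 labelled mutant lay at -11.5, among the controls. Y-linked genes were counted above 1 CPM (counts scaled to library size) in controls 1 and 2 and in library 3 labelled mutant, so the groups also differ in their mix of sexes. The libraries with Y-linked counts had the lowest values on the first component, library 3 labelled mutant among them. How far that component follows sex or label was not tested. Markers of cortical excitatory neurons were present in every library. Slc17a7, the vesicular glutamate transporter of cortical neurons, stood at 186, 212 and 207 CPM in controls 1 to 3 and 231, 202 and 213 CPM in libraries 1 to 3 labelled mutant. The tissue was not pure. Gad1 of interneurons (57.02, 56.9 and 60.5 CPM in controls), Aldh1l1 of astrocytes (51.2, 69.5 and 63.1 CPM) and Pdgfra of oligodendrocyte precursors (100.3, 94.7 and 96.7 CPM) were all present.

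With an adjusted p below 0.05 by edgeR's Benjamini-Hochberg adjusted quasi-likelihood test, 348 of the 17775 tested genes were called (1.96%), 159 higher (0.895%) and 189 lower (1.06%) in the libraries labelled mutant. Below, a gene rose, fell or was called only where it passed this test. Each log2 fold change is that of libraries labelled mutant relative to controls, with its SE, and levels are CPM in libraries 1, 2 and 3 of a group in that order. The median absolute log2 fold change of called genes was 0.59, and 24 rose and 48 fell by more than 2-fold. The CPM of the groups did not overlap for any of the 348, against 16.4% of all tested genes (7.98% higher, 8.44% lower). Leaving out 1 library at a time gave 160 calls without control 2, 197 without control 3 and 467 without mutant 3, and 134 genes (58 higher, 76 lower) were called in all 6 such fits. With the presence of Y-linked counts as a covariate, 274 of the 348 were still called. The gene lists described below were chosen with earlier results of these data known. Over the 37 lists together, 115 of 1372 distinct tested members were called, so a share above that of all tested genes is partly due to this choice. The percentage called of each list below stands against the 1.96% of all tested genes.

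**Figure D1:**
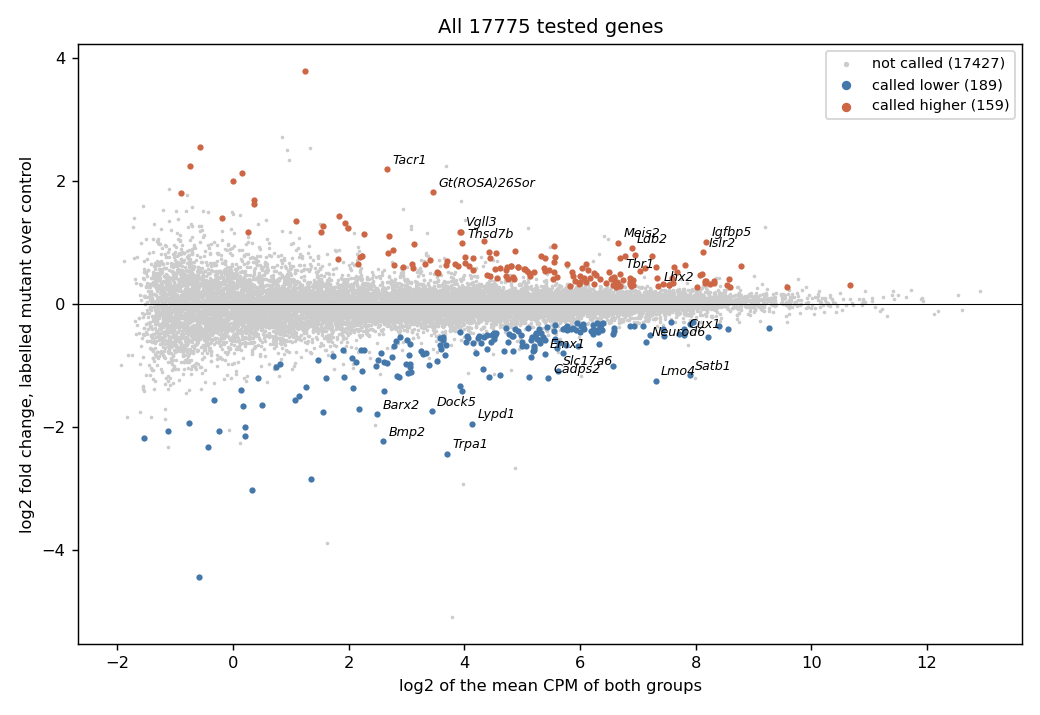
Log2 fold change (libraries labelled mutant over control) of each of the 17775 tested genes against the log2 of its mean CPM; red points are the 159 called higher, blue points the 189 called lower and grey points the rest. Most called genes changed by less than 2-fold, and Lhx2 lies among the points called higher.

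Lhx2, the targeted gene (chromosome 2, 38339281 to 38369733, plus strand of GRCm38/mm10), did not fall in the libraries labelled mutant. It stood at 146, 150.3 and 143 CPM in controls against 171, 182 and 184 CPM in libraries labelled mutant. All 3 of the latter were above all controls, with a log2 fold change of 0.29 ± 0.06 (adjusted p = 0.0276, edgeR's Benjamini-Hochberg adjusted quasi-likelihood test). Permuting the CPM exactly, two-sided, gave p = 0.1, the smallest that 3 against 3 allow. The call was lost without any 1 library except mutant 1 (adjusted p up to 0.184, same edgeR Benjamini-Hochberg adjusted test). Reads from every part of the gene are counted, transcripts that lack a floxed part included, and this row does not check the deletion. Of the genes annotated opposite Lhx2, Gm27197 stood at 1.61, 1.89 and 1.25 CPM and Gm13584 at 1.53, 2.32 and 1.63 CPM in libraries labelled mutant.

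Neurod6, a helix-loop-helix factor of excitatory neurons whose locus carries NexCre (chromosome 6, 55677822 to 55681263, minus strand), separated the groups in the way the genotype labels do. Controls had 162, 173 and 176 CPM and libraries labelled mutant 126, 117 and 90.7 CPM. It fell by 0.61 ± 0.11 on the log2 scale, and the call was lost without control 1 or control 2 (adjusted p up to 0.08, edgeR's Benjamini-Hochberg adjusted quasi-likelihood test). Its paralogue Neurod2, which shares the neuronal targets of this family, went the other way, from 154, 172 and 182 CPM to 247, 268 and 211 CPM (0.51 ± 0.09), a call lost only without control 2 (adjusted p = 0.0608, same Benjamini-Hochberg adjusted edgeR test).

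Genes for partners and competitors of Lhx2 at its LIM domains were changed in part. Lmo4 (chromosome 3, 144188530 to 144205220, minus strand), the LIM-only protein of upper-layer neurons, stood at 227, 222 and 221 CPM in controls against 93.9, 92.3 and 96.2 CPM in libraries labelled mutant. The values of each group lay close together and the groups far apart. Its log2 fold change was -1.25 ± 0.06, with the smallest p of all tested genes (adjusted p = 1.88e-07, edgeR's Benjamini-Hochberg adjusted quasi-likelihood test). Lmo3, another LIM-only gene, went from 119, 133 and 129.8 CPM to 69.01, 66.6 and 53.95 CPM and fell by 1.01 ± 0.09. Lmo1, of the same family, had a log2 fold change of -0.45 ± 0.14 and did not pass the test. Of the cofactors, Ldb2 went from 90.1, 75.8 and 82.3 CPM to 160.3, 169.6 and 135 CPM and rose by 0.91 ± 0.09. Ldb1 did not pass the test (-0.03 ± 0.06, with 140.3, 146 and 143 CPM in controls against 143, 138 and 141 CPM in libraries labelled mutant). Ssbp2 and Ssbp3, which stabilise Ldb proteins, had log2 fold changes of 0.25 ± 0.07 and 0.26 ± 0.08 and did not pass it either. In all, 2 of 19 tested LIM factors and cofactors rose, Lhx2 and Ldb2, and 2 fell, with a median log2 fold change of 0.01 against -0.00 over all tested genes. The calls of Lmo4, Lmo3 and Ldb2 held in each of the 6 fits that left out 1 library.

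The start-site windows of 3 strongly changed genes are shown because Lhx2 and its relatives bind TAATTA-like sites, with capitals marking TAATTA, which reads the same on both strands. They are RefSeq promoters of build GRCm38.p6, from 250 bases before to 50 bases after the annotated start, written 5′ to 3′ on the strand of the gene. Lmo4 has 3 annotated starts, and the first is shown (chr3:144205206-144205505, minus strand). Tacr1 has 1 (chr6:82402225-82402524, plus strand), and of Pdzrn4 the later of 2 is shown (chr15:92596859-92597158, plus strand).
Lmo4: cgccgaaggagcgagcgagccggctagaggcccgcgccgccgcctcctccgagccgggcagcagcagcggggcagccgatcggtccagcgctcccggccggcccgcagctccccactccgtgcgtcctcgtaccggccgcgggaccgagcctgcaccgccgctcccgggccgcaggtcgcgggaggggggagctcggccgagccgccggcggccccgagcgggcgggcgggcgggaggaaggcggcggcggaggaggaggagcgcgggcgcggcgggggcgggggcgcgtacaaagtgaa
Tacr1: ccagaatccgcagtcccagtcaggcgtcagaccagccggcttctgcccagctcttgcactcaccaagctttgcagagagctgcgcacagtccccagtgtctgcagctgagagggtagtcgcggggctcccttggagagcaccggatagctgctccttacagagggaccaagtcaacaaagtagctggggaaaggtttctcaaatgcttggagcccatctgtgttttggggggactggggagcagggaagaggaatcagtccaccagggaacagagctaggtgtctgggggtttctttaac
Pdzrn4: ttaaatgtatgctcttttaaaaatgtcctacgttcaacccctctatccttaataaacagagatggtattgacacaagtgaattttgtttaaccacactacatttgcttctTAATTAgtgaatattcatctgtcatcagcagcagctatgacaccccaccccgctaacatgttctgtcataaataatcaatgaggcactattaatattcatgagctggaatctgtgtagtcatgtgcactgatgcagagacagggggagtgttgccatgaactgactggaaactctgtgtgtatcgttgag
The Lmo4 window is 81.3% G and C and the Tacr1 window 57.7%, and neither holds TAATTA. The Pdzrn4 window is 39.3% G and C and holds it once, beginning 140 bases before the start. The window of the earlier Pdzrn4 start does not hold it. Of the 32 genes that comprise Lhx2, Neurod6 and the 15 largest changes in each direction, 21 had a promoter in the table and 1, Pdzrn4, held TAATTA. Over all tested genes with a promoter, 403 of 11949 held it in at least 1 window (3.37%), against 6 of 113 called higher (5.31%) and 6 of 132 called lower (4.55%). These are matches of letters in 300 bases and say nothing of binding, within the window or elsewhere.

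Among the 15 largest falls of genes with at least 5 CPM in the higher group, some encode signalling and membrane proteins. Trpa1, an irritant-sensing cation channel (chromosome 1, 14872648 to 14918862, minus strand), went from 22.8, 18.4 and 24.9 CPM to 4.22, 4.01 and 4.01 CPM, the largest fall of the 15 (-2.43 ± 0.14, adjusted p = 5.69e-07, edgeR's Benjamini-Hochberg adjusted quasi-likelihood test). The libraries labelled mutant hardly differed from each other. Bmp2, a bone morphogenetic protein ligand (chromosome 2, 133552159 to 133562885, plus strand), went from 9.88, 8.72 and 11.2 CPM to 1.93, 1.77 and 2.67 CPM (-2.23 ± 0.18). Adcy8, a calcium-stimulated adenylyl cyclase, went from 32.3, 32.3 and 37.1 CPM to 15.04, 14.1 and 16.6 CPM (-1.15 ± 0.10), and Pde8b, a phosphodiesterase that breaks down the same second messenger, cyclic AMP, from 26.5, 28.5 and 34.1 CPM to 12.3, 13.6 and 13.2 CPM (-1.19 ± 0.11). An enzyme that makes the messenger and one that removes it thus both fell by more than 2-fold.

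Regulators of transcription and signalling adaptors were also among the 15. Satb1, a chromatin organiser (chromosome 17, 51736187 to 51833290, minus strand), stood at 319, 330.5 and 342 CPM in controls against 149, 151 and 144 CPM in libraries labelled mutant (-1.16 ± 0.06, adjusted p = 4.89e-07, edgeR's Benjamini-Hochberg adjusted quasi-likelihood test). As for Lmo4, the 3 values of a group differed by little beside the gap between groups. Barx2, a homeobox factor, went from 8.09, 8.13 and 10.1 CPM to 2.82, 2.60 and 2.17 CPM (-1.79 ± 0.16), and Dact2, which binds Dishevelled, from 21.3, 21.4 and 25.5 CPM to 6.47, 7.86 and 11.2 CPM (-1.42 ± 0.17). Dock5, an activator of the GTPase Rac, went from 17.4, 13.6 and 18.97 CPM to 4.71, 4.95 and 5.27 CPM (-1.74 ± 0.14). The phospholipase gene Plb1 (-1.36 ± 0.19), the kelch-like gene Klhl4 (-1.32 ± 0.14), Fam163a (-1.71 ± 0.18) and Cadps2, a priming factor of dense-core vesicles (-1.20 ± 0.08), were also in the list, as was Lypd1. Lypd1, which binds nicotinic receptors, went from 27.02, 26.6 and 30.2 CPM to 5.67, 8.89 and 7.27 CPM (-1.94 ± 0.14). It lies opposite Gpr39, and whether counting used strand is not stated in these sources, so reads of overlapping exons could be mixed. Here and below only whole gene spans were compared, and whether exons overlap was not checked. Many other genes named here, such as Adcy8, Barx2 and Cadps2, lie opposite predicted or noncoding genes, with the same limit. All 15 calls held in each of the 6 fits that left out 1 library.

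The 15 largest rises included receptors and secreted proteins. Tacr1, the receptor of substance P (chromosome 6, 82402334 to 82560104, plus strand), went from 2.18, 2.57 and 2.04 CPM to 9.61, 9.63 and 11.95 CPM (2.19 ± 0.16, adjusted p = 6.86e-06, edgeR's Benjamini-Hochberg adjusted quasi-likelihood test). Every library labelled mutant was far above every control. Igfbp5, a secreted binding protein of insulin-like growth factors, went from 188, 196 and 193 CPM to 348, 355 and 461 CPM (1.01 ± 0.10), with library 3 labelled mutant highest. Rspo2, a secreted amplifier of Wnt signals, went from 9.21, 10.2 and 8.84 CPM to 21.03, 21.5 and 21.4 CPM (1.18 ± 0.11), and Adamts2, a procollagen protease, from 3.45, 4.46 and 4.49 CPM to 8.69, 10.3 and 7.65 CPM (1.10 ± 0.16). The orphan receptor gene Gpr149 (1.14 ± 0.15) and Thsd7b (0.99 ± 0.12), which encodes a membrane protein with thrombospondin repeats, rose about as much.

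Regulators of transcription were also among the large rises. Meis2, a homeodomain factor of the TALE class (chromosome 2, 115863064 to 116065839, minus strand), went from 68.8, 68.8 and 64.8 CPM to 133, 137 and 133 CPM (0.99 ± 0.06, adjusted p = 2.05e-06, edgeR's Benjamini-Hochberg adjusted quasi-likelihood test). The groups were again narrow and apart. Vgll3, a cofactor of TEAD proteins, went from 9.44, 9.59 and 8.79 CPM to 21.3, 18.6 and 23.1 CPM (1.18 ± 0.12), and Fosl2, a subunit of AP-1, from 33.01, 31.1 and 31.6 CPM to 72.7, 60.99 and 50.5 CPM (0.94 ± 0.11). Zfpm2, a cofactor of GATA proteins, rose by 1.03 ± 0.17 and Scd3, a fatty acid desaturase with close paralogues that may share its reads, by 1.32 ± 0.24. These 2 calls were lost without control 1 or control 2 (adjusted p up to 0.0665 for Zfpm2 and 0.0937 for Scd3, edgeR's Benjamini-Hochberg adjusted quasi-likelihood test), and the other 13 held in each such fit. Pdzrn4 (0.98 ± 0.14), Fam160a1 (1.43 ± 0.18) and Ldb2 were also among the 15. The noncoding Gt(ROSA)26Sor, transcribed from the ROSA26 locus, went from 5.12, 4.93 and 4.58 CPM to 18.4, 17.03 and 16.2 CPM (1.82 ± 0.12). The labelled genotypes name no allele at this locus, and Thumpd3, annotated opposite to it, had a log2 fold change of 0.04 ± 0.09.

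**Figure D2:**
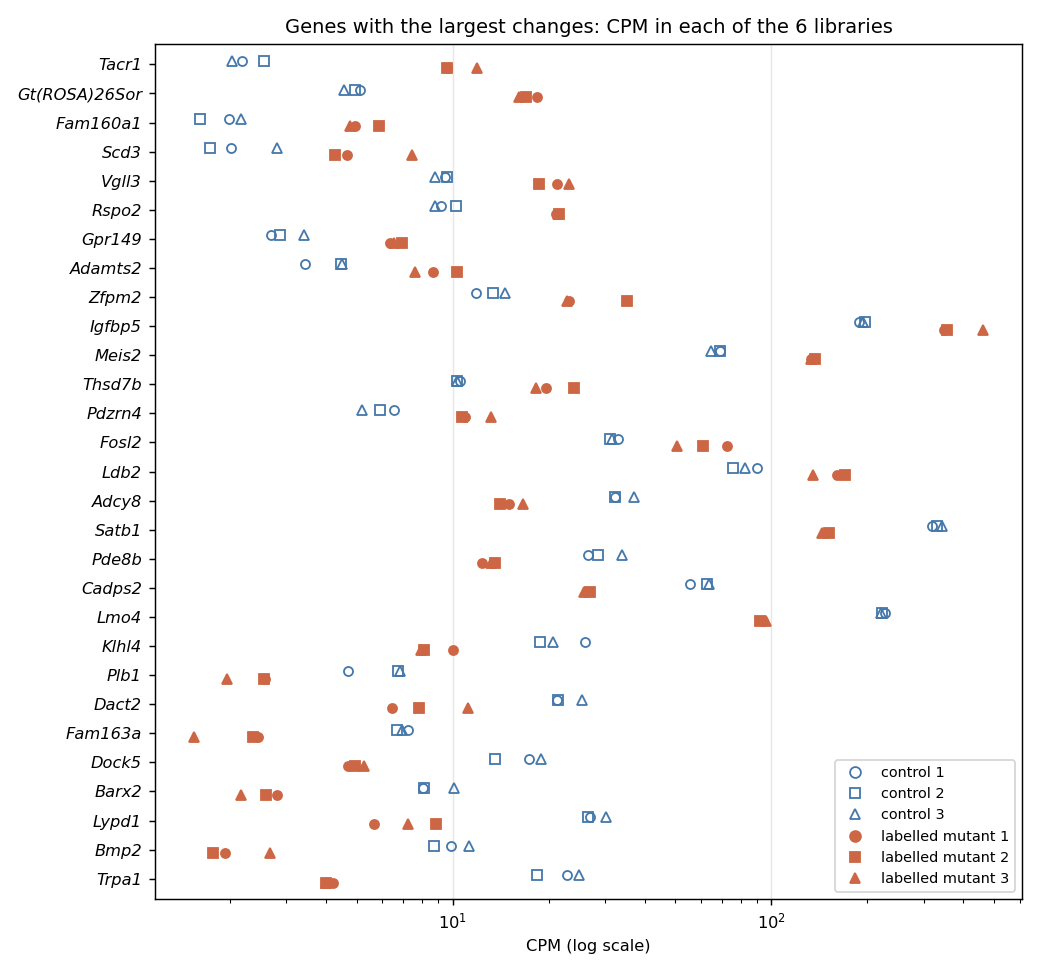
CPM on a log axis in each of the 6 libraries for the 15 genes with the largest rises (top) and 14 of the 15 with the largest falls (bottom); open blue symbols are controls and filled red symbols libraries labelled mutant. The groups do not overlap in any of the 29 genes drawn, which the choice of these genes required.

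Part of the genes of deep-layer identity rose. Of 38 tested genes that mark layers V and VI, 11 rose and 2 fell (34.2% called, against 1.96% of all tested genes), with a median log2 fold change of 0.25. They included transcription factors of corticothalamic neurons. Tbr1, which specifies layer VI, went from 83.7, 88.4 and 85.7 CPM to 129.9, 123 and 109 CPM (0.49 ± 0.07), Foxp2 from 17.4, 16.3 and 14.8 CPM to 33.6, 27.1 and 21.1 CPM (0.75 ± 0.15) and the corepressor Tle4 from 44.1, 41.1 and 42.6 CPM to 78.5, 68.5 and 53.5 CPM (0.65 ± 0.12). In each of these, library 3 labelled mutant was the lowest of its group and the nearest to the controls. Rprm, a layer VI marker and cell cycle inhibitor, went from 119.6, 131 and 129.9 CPM to 226, 190.1 and 164 CPM (0.61 ± 0.10) with the same order. Thsd7b, Ldb2 and Zfpm2, given above, Hs3st4 (0.58 ± 0.11), Tcerg1l (0.57 ± 0.10), Bhlhe40 (0.57 ± 0.11) and the kainate receptor subunit Grik3 (0.33 ± 0.08) were the others that rose. Factors of subcerebral neurons of layer V did not pass the test: Fezf2 had 42.3, 47.1 and 57.2 CPM in controls against 62.98, 70.98 and 48.6 CPM in libraries labelled mutant (0.32 ± 0.15), and Bcl11b 90.5, 97.1 and 108 and 123, 132 and 104 CPM (0.28 ± 0.09). Sox5 (0.22 ± 0.09) did not pass it either. Lmo3, given above, and Wnt7b, a Wnt ligand (-0.58 ± 0.13), were the 2 that fell.

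The size of the deep-layer result differed between libraries. The summed CPM of the 38 genes was 1676, 1708 and 1727 in controls and 2087, 2084 and 1790 in libraries labelled mutant, and the median log2 ratio to the control mean was 0.30, 0.37 and 0.11 in the latter. With Y-linked counts as a covariate, 9 members were higher and 2 lower. Leaving out 1 library gave 5 members higher without control 1, 5 without control 2, 7 without control 3, 9 without mutant 1, 7 without mutant 2 and 13 without mutant 3. The calls of Tbr1, Tcerg1l, Bhlhe40, Thsd7b and Ldb2 held in each of those fits. Those of Foxp2 and Tle4 were lost without any control or mutant 2, Rprm without control 1 or 2, Hs3st4 and Grik3 without any library but mutant 3, and Wnt7b without control 1, control 2, mutant 2 or mutant 3 (adjusted p up to 0.124, 0.105, 0.0758, 0.14, 0.224 and 0.167 by edgeR's Benjamini-Hochberg adjusted quasi-likelihood test). Markers of the subplate, the zone below layer VI, were on balance on the same side. None of 22 was called by edgeR, their median was 0.24 and 15 were above 0. At an unadjusted p under 0.05 in edgeR, 6 were higher and 2 lower, against 5.43% and 5.95% of all tested genes. DESeq2 called 2 higher and 1 lower, and limma-voom 1 lower. Ccn2 stood at 2.58, 1.86 and 2.54 CPM in controls against 7.96, 5.43 and 2.93 CPM in libraries labelled mutant, and Cplx3 at 2.98, 2.84 and 2.13 and 9.05, 4.37 and 4.26 CPM, both highest in library 1 labelled mutant, while Nr4a2 stood at 27.2, 22.7 and 11.4 and 9.01, 5.23 and 5.93 CPM. The summed subplate CPM was 311, 279 and 281 in controls and 338, 297 and 298 in libraries labelled mutant, which overlap. Their part in the deep-layer result was not tested, and in such tissue samples a different number of cells of a type and a different amount of RNA per cell cannot be told apart.

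Genes of upper-layer identity went both ways. Of 38 tested members 8 fell and 3 rose (28.9% called, against 1.96% of all tested genes), with a median log2 fold change of -0.06. Lmo4, Cadps2 and Dact2, given above, fell most. Cux1, a homeodomain factor that promotes dendritic branching of these neurons, went from 249, 259 and 264 CPM to 183, 189 and 185 CPM (-0.47 ± 0.06). Its paralogue Cux2 did not pass the test, with 355, 366 and 367 CPM in controls against 378, 408 and 435 CPM in libraries labelled mutant (0.17 ± 0.07), nor did Pou3f2 (0.19 ± 0.10). Ptn, a secreted growth factor, went from 714, 659.6 and 729 CPM to 537, 541 and 531 CPM (-0.39 ± 0.06). The receptor tyrosine kinase ligand Kitl (-0.71 ± 0.14), the potassium channel gene Kcnh5 (-0.99 ± 0.18) and Rorb (-0.35 ± 0.08), a nuclear receptor of layer IV, were the other falls. Cdh13, an atypical cadherin without a transmembrane part, went from 108, 119 and 108 CPM to 177, 163 and 161 CPM (0.59 ± 0.07), and Nptx1, a secreted pentraxin (0.66 ± 0.14), and Lhx2 itself also rose. The calls of Lmo4, Cadps2, Dact2, Cux1, Ptn and Cdh13 held in each fit that left out 1 library. Those of Kitl (lost without control 1, control 3, mutant 1 or mutant 2), Kcnh5 (control 1 or 2), Rorb and Nptx1 (each library but mutant 3) did not, with adjusted p up to 0.17, 0.0812, 0.196 and 0.119 by edgeR's Benjamini-Hochberg adjusted quasi-likelihood test. The upper-layer sums were 7928, 7542 and 8030 CPM in controls against 7113, 7791 and 7669 CPM in libraries labelled mutant, which overlap.

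**Figure D3:**
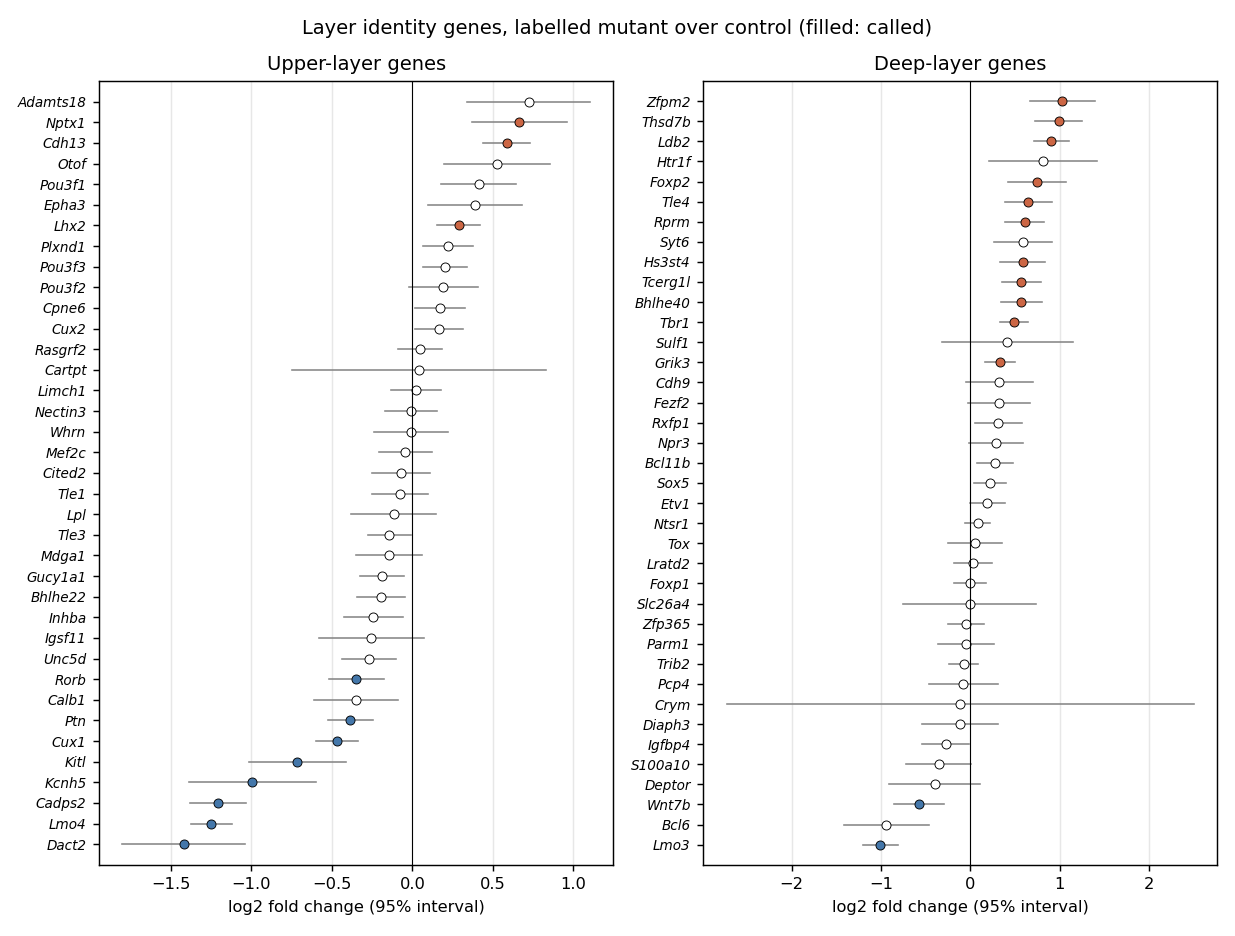
Log2 fold change with its 95% interval for 37 of the 38 upper-layer genes (left) and the 38 deep-layer genes (right), ordered by size; filled points are called genes, blue lower and red higher. In the deep-layer panel 11 filled points lie right of 0 and 2 left, and in the upper-layer panel 3 lie right and 8 left.

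Genes that pattern cortical areas also changed in both directions, 3 of 28 higher and 6 lower, with a median of 0.01. The share called was 32.1%, against 1.96% of all tested genes. Several of them guide thalamic axons or set the body map. Epha7, an ephrin receptor (called also in the Eph and ephrin list), went from 83.4, 72.9 and 76.1 CPM to 123, 134 and 135 CPM (0.75 ± 0.07), while its ligand Efna5 went from 43.9, 47.05 and 47.00 CPM to 28.6, 24.7 and 22.2 CPM (-0.87 ± 0.10). A receptor and a ligand of one system thus moved in opposite directions, each with groups that did not overlap, as in every called gene. Emx1, a homeobox factor of the dorsal telencephalon, went from 50.1, 54.5 and 55.1 CPM to 32.5, 29.1 and 29.9 CPM (-0.80 ± 0.08), whereas its paralogue Emx2 (0.16 ± 0.15), the area factors Nr2f1 (0.23 ± 0.06) and Pax6 (0.02 ± 0.14) did not pass the test. Lhx2, Tbr1, Lmo3, Lmo4 and Rorb, given above, are members too, and the cadherin gene Cdh6 fell by 0.35 ± 0.07. In the whole Eph and ephrin list 2 of 21 rose and 2 fell (19.0% called, against the same 1.96%). Beside Epha7 and Efna5, Epha5 went from 173, 167 and 154 CPM to 190.2, 205 and 220.4 CPM (0.31 ± 0.07) and Ephb3 from 26.7, 26.8 and 26.5 CPM to 18.8, 18.7 and 19.9 CPM (-0.48 ± 0.09). The calls of Epha7, Efna5 and Emx1 held in each fit that left out 1 library. Those of Cdh6 (lost without any control or mutant 1), Epha5 (control 2, control 3, mutant 2 or mutant 3) and Ephb3 (control 2 or 3) did not, with adjusted p up to 0.0758, 0.241 and 0.0677 by edgeR's Benjamini-Hochberg adjusted quasi-likelihood test.

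Of 33 other transcription factors of neuronal differentiation, 3 rose and 5 fell (24.2% called, against 1.96% of all tested genes, median 0.11). Among the falls were Neurod6, Satb1 and Barx2, given above, and Zbtb20 (-0.48 ± 0.10). The rises were Meis2, Neurod2 and Sox11, a factor of young neurons (0.28 ± 0.06, with 361, 335 and 358 CPM in controls against 424, 424 and 430.4 CPM in libraries labelled mutant). Neurog2, a proneural factor at the edge of detection, had 0.476, 0.671 and 0.416 CPM in controls against 1.21, 0.983 and 1.003 CPM in libraries labelled mutant (1.01 ± 0.31) and did not pass the test. Sox11 lost its call without any 1 library and Zbtb20 without control 2, control 3, mutant 1 or mutant 2 (adjusted p up to 0.189 and 0.144, edgeR's Benjamini-Hochberg adjusted quasi-likelihood test).

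Of 18 general genes of excitatory neurons 5 rose and 4 fell (50% called, against 1.96% of all tested genes), with a median of 0.09. The vesicular glutamate transporters parted: Slc17a6, the form of young and subcortical neurons, went from 68.2, 60.5 and 71.7 CPM to 28.8, 28.6 and 37.2 CPM (-1.08 ± 0.11), while Slc17a7 did not pass the test (0.09 ± 0.07). Camk2a, a synaptic kinase that increases as these neurons mature, went from 249, 269 and 262 CPM to 169.6, 176 and 207 CPM (-0.50 ± 0.08). Emx1 and Neurod6, given above, were the other falls, and Neurod2, Tbr1, Nptx1, Rprm and Sla (0.31 ± 0.07) the rises. The calls of Slc17a6, Camk2a, Emx1 and Tbr1 held in each fit that left out 1 library, and that of Sla was lost without control 2, control 3, mutant 1 or mutant 2 (adjusted p up to 0.189, edgeR's Benjamini-Hochberg adjusted quasi-likelihood test). Without control 2, 1 of the 18 was called higher and 3 lower.

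More genes rose than fell in the Slit and netrin list and the cadherin list, but not in the Eph or semaphorin lists. Of 39 members of the Slit, netrin and immunoglobulin adhesion families, 5 rose and 1 fell (median 0.10, with 30 of 39 above 0). The share called was 15.4%, against 1.96% of all tested genes. Islr2, an adhesion protein that promotes axon growth, went from 208, 187 and 204 CPM to 359, 398 and 319 CPM (0.84 ± 0.08). The repellent Slit2 (0.58 ± 0.10) and its receptor Robo1 (0.34 ± 0.07) both rose, from 19.4, 20.01 and 19.4 CPM to 25.6, 29.02 and 33.4 CPM and from 78.4, 80.8 and 72.6 CPM to 93.2, 104 and 97.2 CPM. Cntn2, a contactin (0.35 ± 0.07), and the netrin gene Ntn4 (0.53 ± 0.12) rose as well, and Ntng2, a membrane-bound netrin, went from 91.98, 104 and 97.6 CPM to 60.7, 59.8 and 66.2 CPM (-0.65 ± 0.07). The count depended on the controls, with 2 members higher without control 1, 1 without control 2, 2 without control 3 and 2 without mutant 2. The calls of Islr2 and Ntng2 held in each of those fits and that of Slit2 was lost without control 2 only. Robo1 and Cntn2 were lost without any control or mutant 2, and Ntn4 without any 1 library (adjusted p up to 0.0522 for Slit2, 0.143, 0.109 and 0.179, edgeR's Benjamini-Hochberg adjusted quasi-likelihood test).

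Of 37 cadherins and protocadherins 5 rose and 1 fell (16.2% called, against 1.96% of all tested genes, median 0.11). Fat1, a giant atypical cadherin, went from 91.6, 91.6 and 89.7 CPM to 137, 167 and 170.3 CPM (0.80 ± 0.08), with hardly any spread among controls. N-cadherin, Cdh2, went from 259.6, 236 and 261 CPM to 317, 353 and 309 CPM (0.37 ± 0.07), and Cdh4 (0.54 ± 0.11) and Pcdh10 (0.43 ± 0.09) rose beside Cdh13. Cdh6 was the fall. The calls of Fat1 and Cdh13 held without any 1 library, while those of Cdh2 (control 2 or mutant 2), Cdh4 (control 1, control 2, mutant 2 or mutant 3) and Pcdh10 (any control or mutant 2) did not (adjusted p up to 0.104, 0.0967 and 0.0975, edgeR's Benjamini-Hochberg adjusted quasi-likelihood test). Of the 37, 3 were higher without control 1, 2 without control 2 and 2 without mutant 2. Semaphorins, plexins and neuropilins were called in both directions, 2 of 31 each (12.9%). The neuropilin receptor gene Nrp1 went from 29.6, 29.4 and 32.2 CPM to 41.4, 47.8 and 41.2 CPM (0.52 ± 0.09), and Sema7a, a membrane-anchored semaphorin, from 307, 360.04 and 383 CPM to 246, 232 and 249 CPM (-0.53 ± 0.08). Both calls held in each fit. Sema4c rose (0.45 ± 0.09) and Sema3e fell (-0.66 ± 0.13), the first lost without any library but mutant 3 and the second without control 3 or mutant 1 (adjusted p up to 0.0924 and 0.109, edgeR's Benjamini-Hochberg adjusted quasi-likelihood test).

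Of 57 synaptic adhesion genes 3 rose and 1 fell (7.02% called). The rises were those of a latrophilin, a receptor at synapses, and of 2 Flrt genes, whose proteins bind latrophilins. Adgrl2 went from 226, 231 and 231 CPM to 322, 324 and 318 CPM (0.49 ± 0.06), Flrt3 from 34.01, 29.05 and 31.7 CPM to 47.6, 59.8 and 51.6 CPM (0.75 ± 0.10) and Flrt2 from 71.1, 59.9 and 58.2 CPM to 89.8, 86.9 and 90.6 CPM (0.50 ± 0.08). The groups did not overlap in these 3 genes, as in every called gene. Lrrtm3, a leucine-rich postsynaptic organiser, went from 22.02, 21.7 and 21.05 CPM to 12.9, 14.6 and 14.1 CPM (-0.64 ± 0.10). All 4 calls held in each fit that left out 1 library. Flrt3 lies opposite Macrod2 and Lrrtm3 opposite Ctnna3 by whole gene spans, so reads could be mixed where exons overlap if strand was ignored.

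Signalling lists held single called ligands and modulators. Of 48 genes of the bone morphogenetic protein, activin and transforming growth factor families, 1 rose and 1 fell (4.17% called). Bmp2 was the fall and Fstl5, a follistatin-like secreted protein, went from 35.4, 36.2 and 36.4 CPM to 47.1, 54.2 and 56.3 CPM (0.55 ± 0.08). The receptor gene Bmpr1b (-0.05 ± 0.13), the transducer Smad1 (-0.09 ± 0.08) and the antagonists Nog (-0.23 ± 0.16) and Chrd (-0.35 ± 0.09) did not pass the test. Of 67 Wnt pathway genes 4 rose and 3 fell (10.4% called, median 0.04). R-spondins, which amplify Wnt signals at the receptor, moved apart: Rspo2 rose, as given above, and Rspo3 went from 3.65, 3.32 and 2.82 CPM to 1.09, 1.49 and 0.878 CPM (-1.50 ± 0.23). The Dishevelled-binding Dact1 went from 37.3, 31.1 and 36.8 CPM to 61.6, 62.6 and 54.9 CPM (0.77 ± 0.09) while Dact2 fell. Dkk3, a secreted Dickkopf relative, rose by 0.53 ± 0.08, and among ligands Wnt5b rose from 1.27, 1.07 and 1.30 CPM to 3.66, 3.42 and 2.13 CPM (1.34 ± 0.25) and Wnt7b fell. The targets Axin2 (0.07 ± 0.09) and Lef1 (-0.15 ± 0.25), which report canonical Wnt activity in many tissues, did not pass the test, and the sign of Lef1 turned in 3 of the alternative fits. Of these calls, that of Wnt5b was lost without control 2 (adjusted p = 0.0732, edgeR's Benjamini-Hochberg adjusted quasi-likelihood test), Wnt7b as given above, and those of Bmp2, Fstl5, Rspo2, Rspo3, Dact1, Dact2 and Dkk3 held in each fit that left out 1 library.

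Growth factor genes of the fibroblast growth factor and neurotrophin groups had 1 of 44 higher and 4 lower (11.4% called). Sorcs2, a sorting receptor that partners neurotrophin receptors, went from 65.00, 65.05 and 68.1 CPM to 40.7, 42.3 and 42.3 CPM (-0.66 ± 0.07), with groups wide apart. Fgf10, a ligand, went from 12.7, 10.5 and 12.9 CPM to 6.92, 6.29 and 8.07 CPM (-0.76 ± 0.14), and Fgfr2, its receptor, from 23.5, 24.04 and 19.5 CPM to 15.2, 13.9 and 16.8 CPM (-0.55 ± 0.12). Sorcs1 fell (-0.32 ± 0.08) and Gfra2, a receptor of neurturin, rose (0.40 ± 0.10). Only the call of Sorcs2 among these 5 held in each fit that left out 1 library: that of Fgf10 was lost without control 3 (adjusted p = 0.0526), and those of Fgfr2 (control 1, control 2, mutant 1 or mutant 2), Sorcs1 (any library) and Gfra2 (any library but mutant 1) reached adjusted p up to 0.163, 0.28 and 0.205 by edgeR's Benjamini-Hochberg adjusted quasi-likelihood test. Of 27 retinoic acid and insulin-like growth factor genes Igfbp5 rose and none fell (3.70% called). Of 30 Notch pathway genes none was called by edgeR, DESeq2 or limma-voom (2 were higher and 2 lower at an unadjusted p under 0.05 in edgeR), with a median of -0.02. With 1.96% of all tested genes called, a list of this size can be without a call. Fgfr2 overlaps several genes on the opposite strand, Tacc2, Plekha1 and Htra1 among them, and Sorcs2 lies opposite Psapl1, so their counts are uncertain in the same way.

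Genes known to act in dendrite growth and branching, the process named in the title of the series, were called in both directions, 6 of 93 higher and 6 lower (12.9% called), with a median of 0.03. The falls included those of Cux1, given above, and of the postsynaptic genes Ddn and Camk2a. Ddn, dendrin, went from 192, 216 and 211 CPM to 146, 134 and 154 CPM (-0.51 ± 0.07), and Camk2a is given above. Ngef, a guanine nucleotide exchange factor that acts below Eph receptors, went from 88.5, 97.3 and 101 CPM to 77.5, 67.99 and 69.04 CPM (-0.42 ± 0.08), and the adhesion protein Negr1 fell by 0.29 ± 0.07. The sixth fall was that of Wnt7b, given above. The rises were those of Cobl, an actin nucleator that promotes dendritic branching, from 47.5, 50.2 and 50.9 CPM to 62.7, 68.2 and 72.2 CPM (0.45 ± 0.08), and of Nrp1, Robo1, Epha5, Sox11 and Epha7, given above. Of these, Cux1, Ddn, Camk2a, Cobl, Nrp1 and Epha7 were called in each fit that left out 1 library. Ngef was lost without control 2 or 3 and Negr1 without any 1 library (adjusted p up to 0.0718 and 0.162, edgeR's Benjamini-Hochberg adjusted quasi-likelihood test). Among 48 cytoskeleton genes, which include tubulins and the microtubule-associated proteins of neurites, 1 rose and 1 fell (4.17%): the neurofilament gene Nefl (0.45 ± 0.09) and the intermediate filament gene Prph (-0.75 ± 0.18). Both calls were lost when single libraries were left out (Nefl without control 1 or 2, Prph without any library but mutant 2; adjusted p up to 0.11 and 0.15, same Benjamini-Hochberg adjusted edgeR test). Nefl overlaps Nefm on the opposite strand, which carries the same uncertainty.

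Receptors of inhibitory and cholinergic transmission were mostly lower where they were called. Of 34 tested genes 6 fell and 2 rose (23.5% called, against 1.96% of all tested genes, median -0.07). The GABA-A receptor subunit gene Gabra2 went from 88.5, 83.95 and 86.00 CPM to 54.1, 68.1 and 70.2 CPM (-0.43 ± 0.09), Gabra4 from 35.1, 31.7 and 34.9 CPM to 20.9, 22.4 and 27.96 CPM (-0.51 ± 0.11) and Gabrb1 from 91.2, 86.3 and 99.6 CPM to 57.03, 71.1 and 74.01 CPM (-0.45 ± 0.10). As in every called gene the groups did not overlap, and library 1 labelled mutant was lowest in these 3. Gabrg1, another subunit gene of this receptor, did not pass the test (0.05 ± 0.12). Of the muscarinic acetylcholine receptors, Chrm1 went from 86.4, 87.4 and 89.6 CPM to 60.1, 57.1 and 70.5 CPM (-0.49 ± 0.08) and Chrm4 from 10.1, 11.5 and 9.95 CPM to 6.52, 4.17 and 7.23 CPM (-0.82 ± 0.18), while Chrm3 did not pass it (0.24 ± 0.14). Lypd1, the modulator of nicotinic receptors described above, fell, whereas its relative Lypd6 went from 22.7, 25.1 and 24.4 CPM to 40.2, 35.5 and 33.8 CPM (0.60 ± 0.09). Glra2, the glycine receptor subunit of young cortex, rose from 34.05, 33.00 and 33.2 CPM to 49.6, 50.8 and 49.6 CPM (0.58 ± 0.07). The calls of Lypd1, Lypd6, Chrm1 and Glra2 held in each fit that left out 1 library. Those of Gabra2 and Gabrb1 (lost without any control or mutant 1), Gabra4 and Chrm4 (any library but mutant 3) did not, with adjusted p up to 0.104, 0.114, 0.106 and 0.171 by edgeR's Benjamini-Hochberg adjusted quasi-likelihood test. The number of the 34 that fell was 3 without control 1, 4 without mutant 2, 7 without mutant 3 and 2 without any of the other libraries, and 3 with Y-linked counts as a covariate.

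Glutamate receptors and their auxiliary subunits had 1 of 39 higher and 2 lower (7.69% called). The AMPA receptor subunit gene Gria1 (-0.06 ± 0.06) and the NMDA receptor subunit gene Grin2b (-0.02 ± 0.09) did not pass the test. The presynaptic metabotropic receptor genes Grm2, from 51.7, 64.3 and 65.3 CPM to 37.6, 33.6 and 45.7 CPM (-0.63 ± 0.12), and Grm4 (-0.63 ± 0.14) fell, and Grik3 rose as given above. All of these 3 calls were lost when single libraries were left out (Grm2 without control 2, control 3 or mutant 1, and Grm4 also without mutant 2; adjusted p up to 0.119 and 0.176, edgeR's Benjamini-Hochberg adjusted quasi-likelihood test). Of 41 postsynaptic scaffold genes 4 fell and none rose in edgeR's test (9.76% called; 2 were higher at an unadjusted p under 0.05, and DESeq2 and limma-voom called 0 higher). Synpo, synaptopodin of the spine apparatus, went from 52.9, 58.5 and 58.4 CPM to 35.8, 36.2 and 43.1 CPM (-0.56 ± 0.09), and Sipa1l1, a spine regulator, fell by 0.37 ± 0.07, beside Camk2a and Ddn. The core scaffold genes Dlg4 (-0.02 ± 0.06) and Shank3 (-0.23 ± 0.09) did not pass the test. Of 51 presynaptic genes 3 fell and none rose in edgeR's test (5.88% called; 5 were higher at an unadjusted p under 0.05, DESeq2 called 3 higher and limma-voom 0). Syt4, a synaptotagmin of dense-core vesicles, went from 465, 399 and 425 CPM to 336, 318 and 321 CPM (-0.40 ± 0.07). Syt4, Synpo and Cadps2 were called in every fit that left out 1 library. Slc17a6, given above, was the other fall. The call of Sipa1l1 was lost without control 2 or mutant 1 (adjusted p up to 0.115, edgeR's Benjamini-Hochberg adjusted quasi-likelihood test).

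Among ion channels, 60 potassium channel genes had 1 rise and 3 falls (6.67% called, median -0.09, with 44 of 60 below 0). Kcnh5 went from 14.1, 14.2 and 13.6 CPM to 4.71, 8.45 and 7.90 CPM (-0.99 ± 0.18), and its relative Kcnh1 (-0.39 ± 0.09) and the silent subunit Kcng1 (-0.54 ± 0.11) fell too, while the inward rectifier Kcnj2 rose (0.63 ± 0.14). None of these 4 calls held in all 6 fits that left out 1 library (lost without control 2 in each, and without further libraries; adjusted p up to 0.0812, 0.189, 0.112 and 0.178, edgeR's Benjamini-Hochberg adjusted quasi-likelihood test). Of 46 sodium, calcium, HCN and TRP channel and anoctamin genes 2 rose and 3 fell (10.9% called). Beside Trpa1, the calcium-selective Trpv6 went from 44.5, 43.9 and 49.04 CPM to 28.4, 28.7 and 24.2 CPM (-0.76 ± 0.09) and Cacna2d1, the auxiliary calcium channel subunit, from 271, 234 and 253 CPM to 179, 192 and 202 CPM (-0.40 ± 0.07). These 3 falls were called in every fit that left out 1 library. Trpc4 (0.35 ± 0.08) and the anoctamin gene Ano3 (0.59 ± 0.13) rose, and their calls were lost without 5 and 4 of the 6 libraries (control 2, control 3, mutant 1 and mutant 2 for both, and control 1 for Trpc4), with adjusted p up to 0.183 and 0.187 by edgeR's Benjamini-Hochberg adjusted quasi-likelihood test. Kcnh1 lies opposite Hhat and Ano3 opposite Muc15, so reads of each pair may be mixed if strand was ignored.

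Of 55 genes of neuropeptides and their receptors, 4 rose and 2 fell (10.9% called, against 1.96% of all tested genes), with a median of 0.00. The peptide genes among those called were Grp and Adcyap1, and the others encode receptors. Sstr2, a somatostatin receptor, went from 19.8, 20.6 and 22.02 CPM to 37.4, 38.8 and 37.1 CPM (0.86 ± 0.08), and Grp, gastrin-releasing peptide, from 13.7, 17.3 and 19.3 CPM to 29.8, 32.2 and 27.8 CPM (0.84 ± 0.12), beside Tacr1 and Gpr149. Sstr2 lies opposite Slc39a11, so their reads may not be told apart. All 4 of these rises held without any 1 library. Crhr1, the receptor of corticotropin-releasing hormone, went from 46.9, 44.6 and 46.7 CPM to 27.7, 22.4 and 34.3 CPM (-0.71 ± 0.13) and Adcyap1, the peptide PACAP, from 21.4, 23.8 and 26.5 CPM to 18.4, 14.9 and 16.4 CPM (-0.53 ± 0.11), and both calls were lost when single libraries were left out (Crhr1 without control 1, control 2 or mutant 1, Adcyap1 without control 2, control 3 or mutant 2; adjusted p up to 0.087 and 0.164, edgeR's Benjamini-Hochberg adjusted quasi-likelihood test). The peptide genes of interneurons Sst (0.08 ± 0.14) and Npy (-0.15 ± 0.23) did not pass the test. Of 47 genes of cyclic AMP and monoamine signalling, Adcy8 and Pde8b fell and Adcy2 rose (0.42 ± 0.08), the last lost without control 1, control 3 or mutant 1 (6.38% called; adjusted p up to 0.0759 for Adcy2, edgeR's Benjamini-Hochberg adjusted quasi-likelihood test). Of 39 activity-regulated genes 2 rose and 2 fell (10.3% called). Egr3, an immediate early factor, went from 27.1, 27.3 and 26.6 CPM to 11.9, 9.28 and 18.01 CPM (-1.05 ± 0.21) and Rgs2 from 35.00, 30.9 and 31.1 CPM to 21.4, 14.2 and 21.9 CPM (-0.76 ± 0.15), while Fosl2 and Dusp4 (0.60 ± 0.14) rose. The classical members Fos (from 1.35, 2.57 and 6.20 CPM to 8.41, 6.65 and 1.38 CPM) and Arc (1.03, 1.97 and 2.08 and 1.37, 1.38 and 1.003 CPM) were low and overlapped between groups. Of these 4 calls that of Fosl2 held without any 1 library, whereas those of Egr3 (any control or mutant 1), Rgs2 (any control) and Dusp4 (any library but mutant 3) were lost (adjusted p up to 0.204, 0.104 and 0.203, same Benjamini-Hochberg adjusted edgeR test).

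Lists of metabolism, stress and other cell types held no call or few, against 1.96% of all tested genes. At that share a list of this size can be without a call, so 0 calls say little about its genes. Of 76 nuclear genes of oxidative phosphorylation none was called by edgeR, DESeq2 or limma-voom (1 was higher and 2 lower at an unadjusted p under 0.05 in edgeR), with a median of -0.02, and of 53 heat shock, unfolded protein and p53 response genes edgeR called none (2 higher and 7 lower at an unadjusted p under 0.05, 1 in each direction by DESeq2, none by limma-voom). Of 51 lipid synthesis genes Scd3 rose and Plb1 fell (3.92% called). Of 42 cell cycle genes Mcm6, a replication helicase subunit, rose (0.45 ± 0.09; lost without any library but mutant 3, adjusted p up to 0.131, edgeR's Benjamini-Hochberg adjusted quasi-likelihood test), while 33 of 42 had a log2 fold change below 0. Astrocyte markers were on the low side without a call by edgeR. Of 31 tested, 29 were below 0, the median was -0.20, and 14 were lower and 0 higher at an unadjusted p under 0.05 in edgeR, against 5.95% lower and 5.43% higher over all tested genes. DESeq2 called 3 of them lower, Aqp4, Fabp7 and Id3, and limma-voom none. Their summed CPM was 3479, 3968 and 3679 in controls and 3109, 3362 and 3487 in libraries labelled mutant, which overlap, and the defining markers were present throughout, with Aqp4 at 65.4, 71.9 and 66.3 CPM in controls and 44.9, 49.04 and 60.4 CPM in the others and Gfap at 30.1, 30.4 and 32.4 and 22.4, 28.4 and 23.7 CPM. In both of these genes the groups did not overlap, as in 16.4% of all tested genes. Their part in the other results was not tested. Among 22 markers of the oligodendrocyte lineage, 23 of microglia and 30 of vessels and meninges edgeR, DESeq2 and limma-voom called none (0, 1 and 3 at an unadjusted p under 0.05 in edgeR). Of 28 interneuron markers edgeR and limma-voom called none and DESeq2 1, Calb2 (3 at an unadjusted p under 0.05 in edgeR), and Gad1 (0.05 ± 0.07) and Gad2 (0.02 ± 0.08), which make GABA, did not pass the test.

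**Figure D4:**
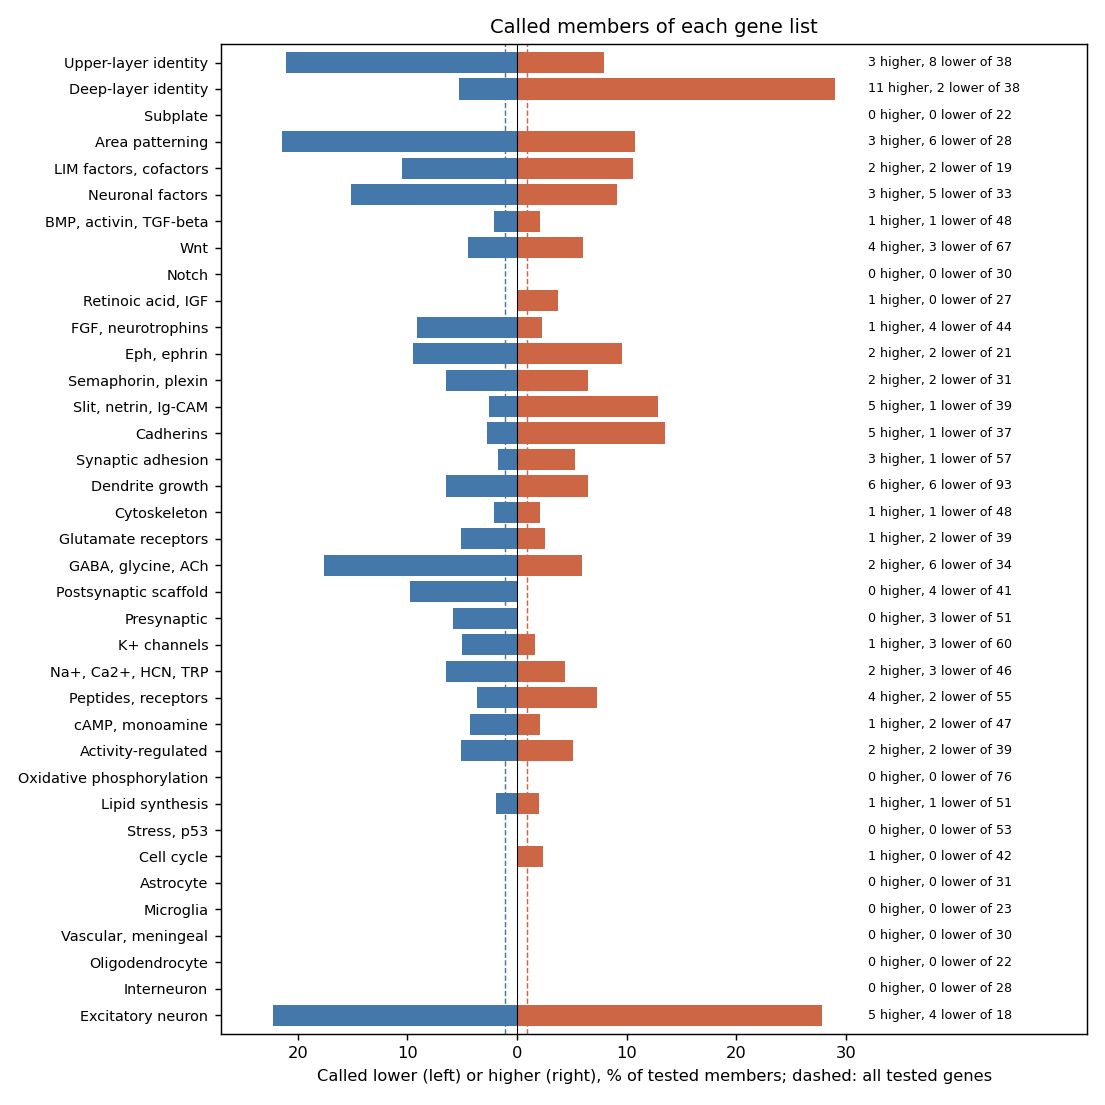
For each of the 37 gene lists, the share of tested members called lower (blue, to the left) and higher (red, to the right), in percent, with the counts printed at the right; dashed lines mark the shares over all tested genes, 1.06% lower and 0.895% higher. The excitatory-neuron, deep-layer, area-patterning and upper-layer lists have the longest bars, and 9 lists have no call.

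The genes with the largest changes were also measured in the progenitor experiment, in which Cre-EGFP was electroporated. That experiment has its own controls, and its table was counted separately. Its values and the differences came from 1 fit of all 14 libraries over symbols found in both tables. The NexCre values beside them are those of the fit of its 6 libraries given above. The 32 genes asked, Lhx2, Neurod6 and the 15 largest changes in each direction, were chosen for their size in the NexCre experiment, so most can be larger in it by that choice. The difference passed edgeR's Benjamini-Hochberg adjusted quasi-likelihood test for 21 of the 32, against 6.94% of 15643 genes tested in both. Lmo4 had a log2 fold change of -0.01 ± 0.13 in the progenitor experiment against -1.25 ± 0.06 here, and Satb1 -0.10 ± 0.07 against -1.16 ± 0.06. Tacr1 had 0.02 ± 0.14 there against 2.19 ± 0.16, and Bmp2 -0.37 ± 0.15 against -2.23 ± 0.18. These 4 differed, with differences of -1.23 ± 0.20 for Lmo4, -1.05 ± 0.11 for Satb1, 2.18 ± 0.22 for Tacr1 and -1.85 ± 0.24 for Bmp2. Neurod6, with 0.49 ± 0.17 there, and Thsd7b, with -0.41 ± 0.14 there and 0.99 ± 0.12 here, had opposite signs in the experiments and differed as well. The value of Neurod6 in the progenitor experiment did not pass the test (adjusted p = 0.0541, edgeR's Benjamini-Hochberg adjusted quasi-likelihood test). The Neurod6 locus carries NexCre in the libraries labelled mutant here, and an effect of that allele on its own counts was not tested.

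For other genes the difference did not pass the test. Vgll3 had a log2 fold change of 1.33 ± 0.17 in the progenitor experiment and 1.18 ± 0.12 here, Dact2 -1.09 ± 0.17 and -1.42 ± 0.17, and Lypd1 -1.30 ± 0.18 and -1.94 ± 0.14. All 3 passed the test within each experiment. Their differences were -0.15 ± 0.24 for Vgll3, -0.33 ± 0.26 for Dact2 and -0.64 ± 0.28 for Lypd1, so a smaller response there is not shown for these genes, nor is an equal one. Lhx2 had 0.02 ± 0.06 there, and its difference of 0.26 ± 0.10 did not pass the test (adjusted p = 0.106, edgeR's Benjamini-Hochberg adjusted quasi-likelihood test). The experiments also differ in how Cre was delivered, which cannot be told apart from the difference in the cells that received Cre.

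**Figure D5:**
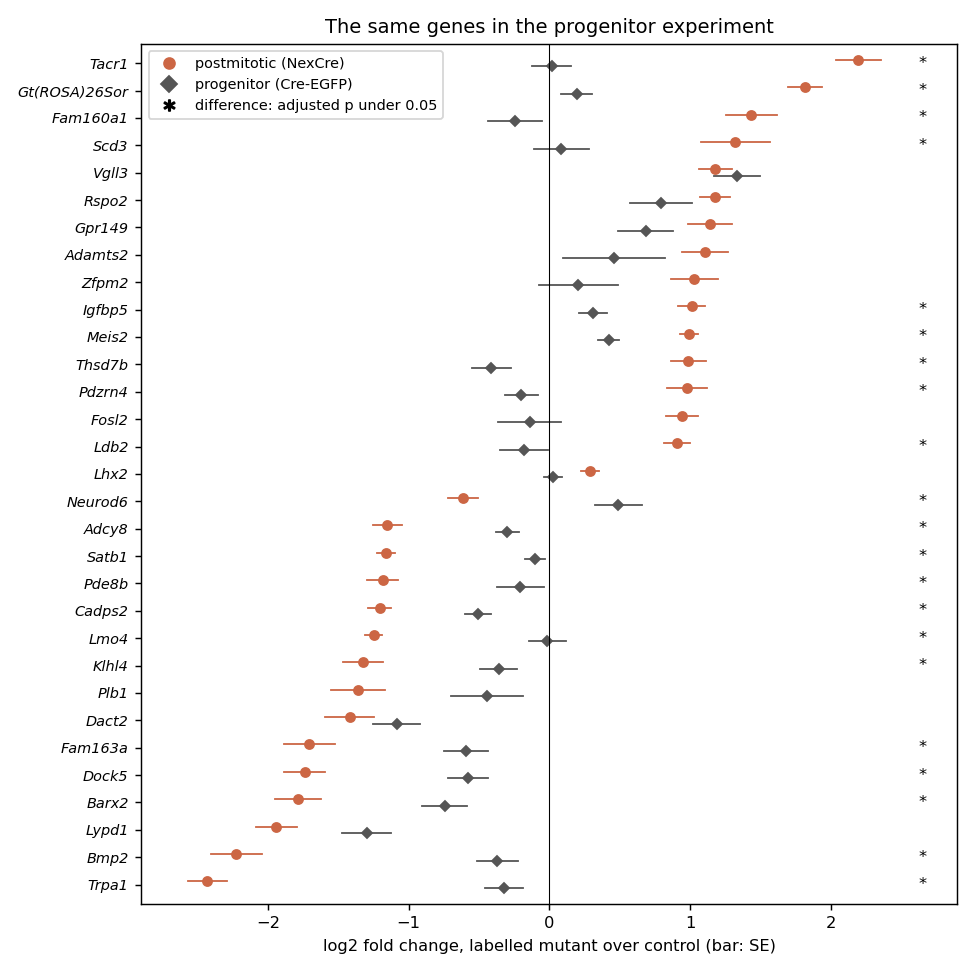
Log2 fold change with its SE (bars) of 31 of the 32 genes in the NexCre experiment (red circles) and in the progenitor experiment (grey diamonds), ordered by the former; asterisks mark the 21 genes whose difference passed the test. Diamonds lie near 0 for genes such as Tacr1, Lmo4 and Satb1 and near the circles for Vgll3 and Dact2.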

How the data were processed

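RNA with poly(A) tails from P5 cortex was sequenced in 14 libraries, of which the 6 of the NexCre experiment were compared, 3 labelled mutant against 3 control, as labelled. The authors deposited raw counts per gene symbol, 1 table per experiment. HISAT2, featureCounts, DESeq2 and mm10 are named in the submitters' processing notes. Their versions, the annotation and the strand option were not given in the sources used here. Result tables made by the authors were not used here. The deposited table held 0 columns of other samples.

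Genes were filtered with filterByExpr, scaled by TMM and tested with edgeR 4.0.16 (robust quasi-likelihood test, Benjamini-Hochberg adjustment over all 17775 tested genes, threshold 0.05) in R 4.3.3. The SE is the absolute log2 fold change divided by the square root of F. CPM were computed on TMM-scaled library sizes. Total counts of 21605777 to 25891416 per library set the counting error. The values of the progenitor experiment came from 1 fit of all 14 libraries, and the difference between experiments was an interaction term in the same fit. Calculations were tested on simulated counts of 3 against 3 libraries. A true absolute log2 fold change of 0.5 was called in 33 of 66 genes, 1 in 49 of 64 and 2 in 62 of 63. Of 17324 genes simulated without a change, 13 were called, which stand beside the 33, 49 and 62 calls of changed genes. Counts were drawn independently for each library from the fitted dispersions, without differences in sex or tissue mix. The simulation therefore cannot show how many calls such differences add in the real libraries.

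Genes named were Lhx2, Neurod6, the 15 called genes in each direction with the largest change (groups not overlapping, at least 5 mean CPM in the higher group, no predicted-gene symbol), a set of layer, LIM and signalling genes, and, in each of 37 lists, up to 4 members with the smallest p and members described by role. Values of a few members are not reported here. Members and lists were chosen with earlier results of these data known. Gene positions are from GENCODE for GRCm38/mm10 and were matched by symbol. Alternatives were DESeq2 1.42.0, limma 3.58.1 (voom), RLE scaling, other filters, a threshold of 0.01, a fit without robust estimation, 1 fit of all 14 libraries, a replicate block, Y-linked counts as a covariate, libraries 1 and 2 only, and leaving out each library. The replicate numbers were not treated as pairs in the main fit.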

Additional observations from a re-analysis of the deposited data

Results flagged for a closer look

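Of the 32 genes asked, 21 responded differently in the 2 experiments by the interaction test (edgeR's Benjamini-Hochberg adjusted quasi-likelihood test, adjusted p under 0.05). The share over 15643 genes tested in both was 6.94%. Apart from Lhx2 and Neurod6, the 32 were chosen for their size in the NexCre experiment, so a high share can follow from that choice. The values below are log2 fold changes of the NexCre experiment minus those of the progenitor experiment. The difference was -2.10 for Trpa1, -1.85 for Bmp2, -1.23 for Lmo4, -1.16 for Dock5, -1.11 for Fam163a, -1.10 for Neurod6, -1.05 for Satb1 and -1.04 for Barx2. It was -0.98 for Pde8b, -0.96 for Klhl4, -0.85 for Adcy8 and -0.70 for Cadps2. Among genes that rose with NexCre, the difference was 2.18 for Tacr1, 1.68 for Fam160a1, 1.62 for Gt(ROSA)26Sor, 1.40 for Thsd7b, 1.24 for Scd3, 1.18 for Pdzrn4, 1.09 for Ldb2, 0.70 for Igfbp5 and 0.57 for Meis2.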

How the results depend on the processing

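Without a filter 723 genes were called (362 higher, 361 lower), DESeq2 called 249 higher, and a threshold of 0.01 left 146 (65 higher, 81 lower). Leaving out 1 library gave 160 to 467 calls, 69 to 191 higher and 91 to 276 lower, lowest without control 2 and highest without mutant 3. Counts of all calls under the other alternatives were within 1.5 times 348. Lhx2 kept its direction but lost its call in the fit of all 14 libraries (0.29, adjusted p = 0.0555), with the replicate block (0.29, 0.114), in libraries 1 and 2 only (0.25, 0.226) and without each library but mutant 1 (0.27 to 0.32 over all 6), by edgeR's Benjamini-Hochberg adjusted quasi-likelihood test. Lef1, never called, turned from -0.15 to 0.03 with the Y-linked covariate, 0.0684 without control 2 and 0.0698 without mutant 1 (-0.35 to 0.0698 over all 6 libraries left out). The cause was not tested. With the replicate block 246 genes were called (111 higher, 135 lower). Same-numbered libraries had deviations correlated at -0.099, 0.026 and -0.196, so no pairing by number shows in these values. Whether libraries were prepared in pairs is not stated in these sources. With 3 libraries per group, small changes, and changes of genes with low counts, may be undetected.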

Other observations

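Genes of the circadian clock, a group chosen after their values were seen and given without a test, had 7 of 22 members lower and 1 higher (36.4% called, against 1.96% of all tested genes). The choice itself can raise that share, so the comparison shows nothing about the group. Dbp, an output factor of the clock, went from 14.01, 16.1 and 15.3 CPM to 8.93, 6.61 and 8.48 CPM (-0.92 ± 0.13) and Nr1d2, a repressor of the loop, from 50.3, 43.8 and 47.3 CPM to 32.4, 31.2 and 31.1 CPM (-0.58 ± 0.08). Both had groups that did not overlap, as every called gene did. Tef (-0.32 ± 0.07), Per3 (-0.54 ± 0.13), Npas2 (-0.69 ± 0.13), Klf9 (-0.42 ± 0.07) and Rorb (-0.35 ± 0.08) were the other falls, and Bhlhe40 (0.57 ± 0.11) the rise. The core genes Arntl (-0.10 ± 0.08), Clock (-0.00 ± 0.09) and Per1 (-0.12 ± 0.07) did not pass the test. The number lower was 3 without control 1, 2 without control 2, 2 without control 3, 4 without mutant 1, 5 without mutant 2, 7 without mutant 3 and 4 with the Y-linked covariate.

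Of 20 ADAMTS protease and matrix genes, also chosen after their values were seen, 4 rose and none fell in edgeR's test. The share called was 20%, against 1.96% of all tested genes, and the choice itself can raise it. At an unadjusted p under 0.05 in edgeR 0 were lower, and DESeq2 and limma-voom called 0 lower. The rises were those of Adamts2, Adamts17 (0.85 ± 0.14), Adamts3 (0.37 ± 0.08) and Adamtsl3 (0.65 ± 0.15). The number higher was 2 without control 1, 1 without control 2, 2 without control 3 and 2 without mutant 2. Mn1, a transcriptional coregulator, rose from 99.6, 121 and 114 CPM to 184, 200.04 and 188 CPM (0.78 ± 0.08), and Msx3, a homeobox gene, fell from 3.69, 5.60 and 4.16 CPM to 1.01, 0.393 and 0.460 CPM (-2.85 ± 0.31), both called in each fit that left out 1 library and both picked after their values were seen. Crym, a thyroid hormone binding protein, stood at 14.4, 12.5 and 16.5 CPM in controls and 1.25, 19.9 and 18.9 CPM in libraries labelled mutant, and library 1 labelled mutant was far below the rest.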
